A study of Mus musculus with 5 samples.

Results

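The 9 genes described here encode transcription factors of interferon and cytokine signalling: 7 interferon regulatory factors (Irf1, Irf2, Irf3, Irf5, Irf7, Irf8 and Irf9) and 2 signal transducers and activators of transcription (Stat2 and Stat3). They were chosen by gene symbol, as every probe set whose only symbol in the platform annotation was one of these names, and are 9 of 18194 genes with such a probe set. They had 18 probe sets in all, and 4 of the genes had 1 probe set each. RNA was measured on 5 one-colour arrays at 24 h, from cultured aortic endothelial cells of mice on a C57BL/6J background, with 3 arrays titled Control and 2 titled TNF-LTBR. The title of the series speaks of smooth muscle instead, so the labels disagree on the cell type. All 5 share the medium, with serum, heparin and endothelial growth supplement, and all 5 carry the same treatment text, which mentions stimuli but ends with PBS alone. The identity of the TNF-LTBR group therefore rests on its titles, and the labels name neither the agonists nor their doses. Whether replicate arrays stem from separate cultures is likewise unstated, so the p-values reflect variation among these 5 arrays only. Whether that variation is technical or biological was not tested.

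Type I interferon binds the receptor encoded by Ifnar1 and Ifnar2, and its kinases phosphorylate STAT2, which joins IRF9 in the complex ISGF3. ISGF3 binds the interferon-stimulated response element (ISRE) of antiviral genes, and Irf7 is itself such a target as well as an activator of interferon genes. IRF1 is made on demand after interferon gamma or NF-kB signalling, and STAT3 carries signals of interleukin 6 and related cytokines. Tumour necrosis factor (TNF) and the lymphotoxin beta receptor (LTBR), which the group's name contains, signal through NF-kB.

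The promoters of the 3 genes below are shown because they hold letters that match these pathways. Each window runs from 250 bases before to 50 bases after a RefSeq transcript start on build GRCm38.p6, and 12 windows were listed for the 9 genes. Capitals mark matches to the STAT element GAS (TTCNNNGAA), to the ISRE (GAAA, any 2 bases, GAAA) or to the NF-kB consensus, searched on both strands.
Irf1, chr11:53769764-53770063, + strand: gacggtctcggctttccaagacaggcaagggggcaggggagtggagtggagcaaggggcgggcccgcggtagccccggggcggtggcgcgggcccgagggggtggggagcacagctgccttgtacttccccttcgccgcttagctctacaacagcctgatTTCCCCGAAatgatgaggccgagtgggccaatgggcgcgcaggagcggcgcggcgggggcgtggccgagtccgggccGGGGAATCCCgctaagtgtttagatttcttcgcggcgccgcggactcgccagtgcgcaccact
Irf2, chr8:46739495-46739794, + strand: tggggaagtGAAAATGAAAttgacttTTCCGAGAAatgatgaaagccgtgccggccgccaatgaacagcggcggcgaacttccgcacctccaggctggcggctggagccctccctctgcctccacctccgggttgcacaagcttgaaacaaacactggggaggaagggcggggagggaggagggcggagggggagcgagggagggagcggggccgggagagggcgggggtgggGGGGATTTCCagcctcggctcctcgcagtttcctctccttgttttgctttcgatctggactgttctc
Stat2, chr10:128270248-128270547, + strand: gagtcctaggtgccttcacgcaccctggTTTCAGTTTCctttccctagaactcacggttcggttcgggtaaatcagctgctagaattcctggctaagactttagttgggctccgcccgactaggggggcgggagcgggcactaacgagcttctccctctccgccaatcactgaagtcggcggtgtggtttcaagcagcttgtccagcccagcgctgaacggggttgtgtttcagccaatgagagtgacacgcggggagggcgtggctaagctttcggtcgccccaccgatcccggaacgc
The Irf1 window shown held a GAS starting 90 bases before the start site and an NF-kB match starting 13 bases before it. The other Irf1 window held none of these letters. The Irf2 window held matches of all 3 kinds, at 241 (ISRE), 224 (GAS) and 17 (NF-kB) bases before the start site. The Stat2 window held an ISRE on the reverse strand, 222 bases before it. No 2 matches overlapped. Irf8 had 2 GAS matches in one of its 2 windows, and the windows of Irf3, Irf5, Irf7, Irf9 and Stat3 held none of these letters. Over all 32851 windows of this length, 8.30% held a GAS, 3.44% an ISRE and 4.51% the NF-kB consensus. A match is a run of letters, and binding was not measured.

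The arrays had median intensities of 109.9 to 120.7, and levels are given below either as intensity or as log2(intensity + 16), the scale of all differences and folds, which understates changes of dim genes. Genes were tested where their mean on this scale was at least 7.17, an intensity of 128, which kept 10916 genes and 8 of the 9 factors. With limma, 0 of the 10916 passed a Benjamini-Hochberg adjusted p of 0.05 (0% called), and the smallest adjusted p was 0.999. At an unadjusted p under 0.05 there were 192 genes (1.76%). With 3 arrays against 2, the smallest two-sided p that exact permutation allows is 0.1. The label was checked against markers: 8 of 14 endothelial genes, among them Pecam1, Cdh5, Vwf, Tie1 and Tek, lay under the brightness filter, and Kdr, Eng, Emcn, Esam, Egfl7 and Plvap lay over it. All 10 fibroblast and pericyte markers lay over it, with Col1a2 at 14.10 to 14.34 on every array. Of 10 smooth muscle markers, 8 lay over it, and Cnn1 and Myh11, markers of the contractile state, under it. Tpm2 lay at 12.69 to 13.21 and Tagln at 5.15 to 11.70, both picked once their values had been seen.

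Irf1, taken by its brightest probe set as all 9 factors were, was the 1 factor whose 2 groups did not overlap. Controls 1, 2 and 3 gave intensities of 1142, 1217.5 and 1280.4, against 1706 and 1907 for TNF-LTBR arrays 1 and 2. Both TNF-LTBR arrays were above all controls, and the arrays of each group lay close together. On the log2 scale Irf1 lay at 10.26 ± 0.08 (SD, n = 3) in control and 10.83 ± 0.11 (SD, n = 2) in TNF-LTBR, a difference of 0.57 (SE 0.14, 95% interval 0.22 to 0.91) or 1.48-fold. The limma p was 0.00769 unadjusted and 0.999 adjusted over all tested genes, so Irf1 did not pass. The size of the difference exceeded that of 94.7% of tested genes. It stayed between 0.49 and 0.65 when each array was left out. Over all tested genes, 6.94% had both TNF-LTBR arrays above all controls and 6.34% had both below, 13.3% together. The 1 factor of 8 tested is therefore near the background share. The count was 3 without control replicate 2 (Irf1, Irf3 and Irf5, background 26.8%), 3 without TNF-LTBR replicate 1 (Irf1, Irf7 and Stat2, background 40.5%) and 4 without TNF-LTBR replicate 2 (Irf1, Irf2, Irf3 and Stat2, background 53.7%). The single Irf1 probe set ends in the suffix _a_at.

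**Figure D1:**
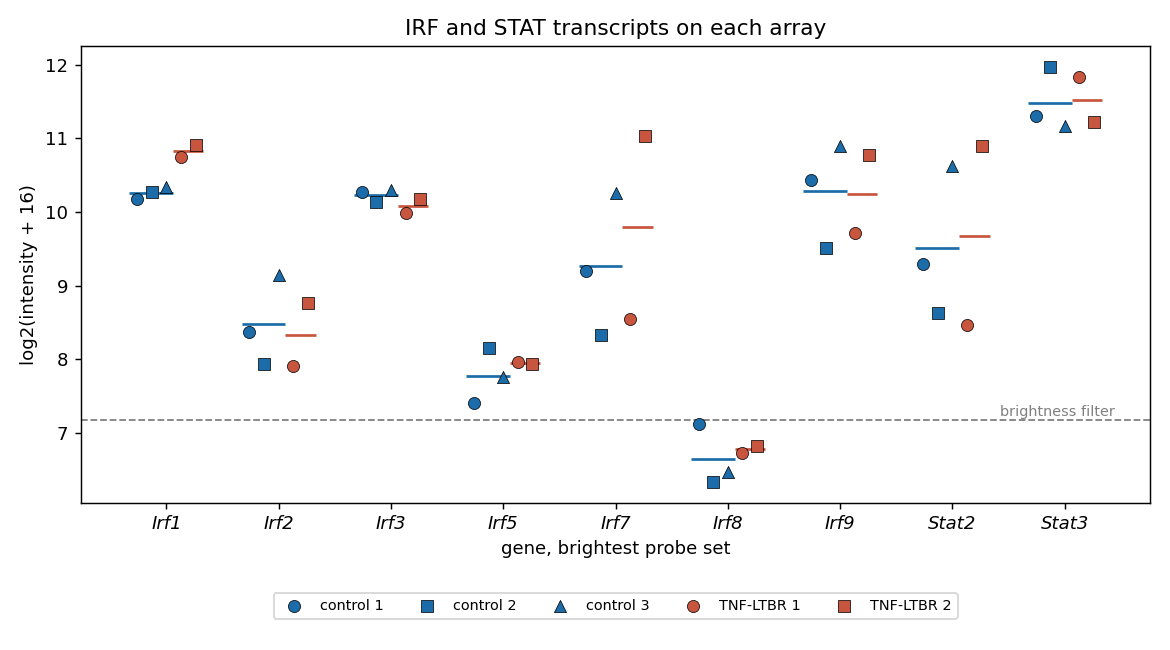
Level of each factor's brightest probe set on each array, as log2(intensity + 16), with blue points for the 3 control arrays, red points for the 2 TNF-LTBR arrays, horizontal lines for group means and a dashed line at the brightness filter of 7.17. Irf1 is the 1 gene whose red points both lie above its blue points, while Irf7 and Stat2 spread over 2.71 and 2.45 log2 units across the arrays.

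Irf2, a competitor of IRF1 for the same DNA element and often a repressor, did not share the Irf1 pattern. Its intensity was 315.2, 228.4 and 546.8 in control, against 222.8 and 419.1 in TNF-LTBR. Control array 3 was the highest, TNF-LTBR array 1 the lowest, and the groups overlapped. The log2 difference was -0.15 (95% interval -1.28 to 0.99), and it turned positive without control replicate 3 (0.18) or TNF-LTBR replicate 1 (0.28).

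Irf7 varied most of the 9 factors. Controls 1, 2 and 3 gave intensities of 571.9, 304.9 and 1212, against 358.7 and 2089 for TNF-LTBR arrays 1 and 2. TNF-LTBR array 2 was the highest of the 5, but TNF-LTBR array 1 lay below 2 of the 3 controls. The group means were 9.26 ± 0.97 (SD, n = 3) and 9.79 ± 1.76 (SD, n = 2) on the log2 scale, a difference of 0.53 with a 95% interval of -1.74 to 2.81 (limma adjusted p 0.999). This difference is nearly the size of that of Irf1, and it was 1.78 when TNF-LTBR replicate 1 was left out, -0.71 when TNF-LTBR replicate 2 was, and 0.06 when control replicate 2 was. The gap between the 2 TNF-LTBR arrays, 2.49 log2 units, exceeded that of 98.7% of tested genes, and the range within control, 1.94, exceeded that of 96.1%.

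As for Irf7, both ISGF3 subunits on the list had control array 3 above control array 2, and TNF-LTBR array 2 above TNF-LTBR array 1. This is called the array order of Irf7 below, and the opposite on both sides that of Stat3. Stat2 lay at intensities of 608.6, 379.9 and 1567 in control, against 335.2 and 1899 in TNF-LTBR on its brighter probe set. On the other it lay at 393.8, 230.6 and 693.6 in control, against 269.9 and 760.7 in TNF-LTBR. On both probe sets TNF-LTBR array 2 and control array 3 were the 2 highest, and control array 2 and TNF-LTBR array 1 the 2 lowest. The log2 difference of Stat2 was 0.16 (95% interval -2.13 to 2.46), and it was -1.06 without TNF-LTBR replicate 2 and -0.28 without control replicate 2. Irf9, the subunit that gives ISGF3 its DNA specificity, lay at 1362, 714.8 and 1898 in control, against 823.2 and 1730.4 in TNF-LTBR. Control array 3 was its highest and control array 2 its lowest. Its log2 difference was -0.04 (95% interval -1.33 to 1.26), and it turned positive on leaving out TNF-LTBR replicate 1 (0.49), control replicate 3 (0.27) or control replicate 1 (0.03).

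Stat3 ran the other way. Its brightest probe set lay at intensities of 2520 (control 1), 4015 (control 2) and 2292 (control 3), and of 3641 and 2373 on TNF-LTBR arrays 1 and 2. Control array 2 and TNF-LTBR array 1, the 2 lowest arrays for Irf7 and Stat2, were the 2 highest for Stat3. The same 2 arrays were the highest on 3 of its 4 probe sets. The fourth, below the filter, lay at 117.2, 135.3 and 141.2 in control, against 86.7 and 105.4 in TNF-LTBR, both below all controls. The group difference of the brightest probe set was 0.04 (95% interval -0.76 to 0.85), and it turned negative on leaving out TNF-LTBR replicate 1 (-0.26), control replicate 3 (-0.11) or control replicate 1 (-0.05).

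Irf3, which is present before stimulation and is activated by phosphorylation rather than by new RNA, was steady on its brightest probe set. That probe set lay at 1216, 1105.7 and 1249 in control, against 999.7 and 1140.5 in TNF-LTBR, so that all 5 arrays lay within 0.32 log2 units, a range larger than that of 19.3% of tested genes. The log2 difference was -0.15 (95% interval -0.51 to 0.21), and it was -0.059 when TNF-LTBR replicate 1 was left out and -0.25 when TNF-LTBR replicate 2 was. Its other probe sets differed by 0.02, -0.16 and -0.25. The third in brightness, also over the filter, was less even, at 162.9, 111.7 and 309.0 in control, against 120.3 and 206.3 in TNF-LTBR, in the array order of Irf7. The dimmest, under the filter, had the array order of Stat3, at 78.5, 60.8 and 29.1 in control, against 56.4 and 30.6 in TNF-LTBR.

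Irf5, an activator of inflammatory genes mostly studied in myeloid cells, lay at 153.4, 269.1 and 199.2 in control, against 233.2 and 229.3 in TNF-LTBR. The TNF-LTBR values lay within the range of the controls. The log2 difference was 0.18 (95% interval -0.52 to 0.88) and ran from -0.0026 (control replicate 1 left out) to 0.37 (control replicate 2 left out). Irf8, a factor of macrophages, dendritic cells and B cells, was under the brightness filter on both probe sets and was not tested. Its brighter probe set lay at 122.4, 64.4 and 72.5 in control, against 89.9 and 96.8 in TNF-LTBR, and the groups overlapped. The log2 difference of 0.14 became -0.018 when control replicate 2 was left out.

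**Figure D2:**
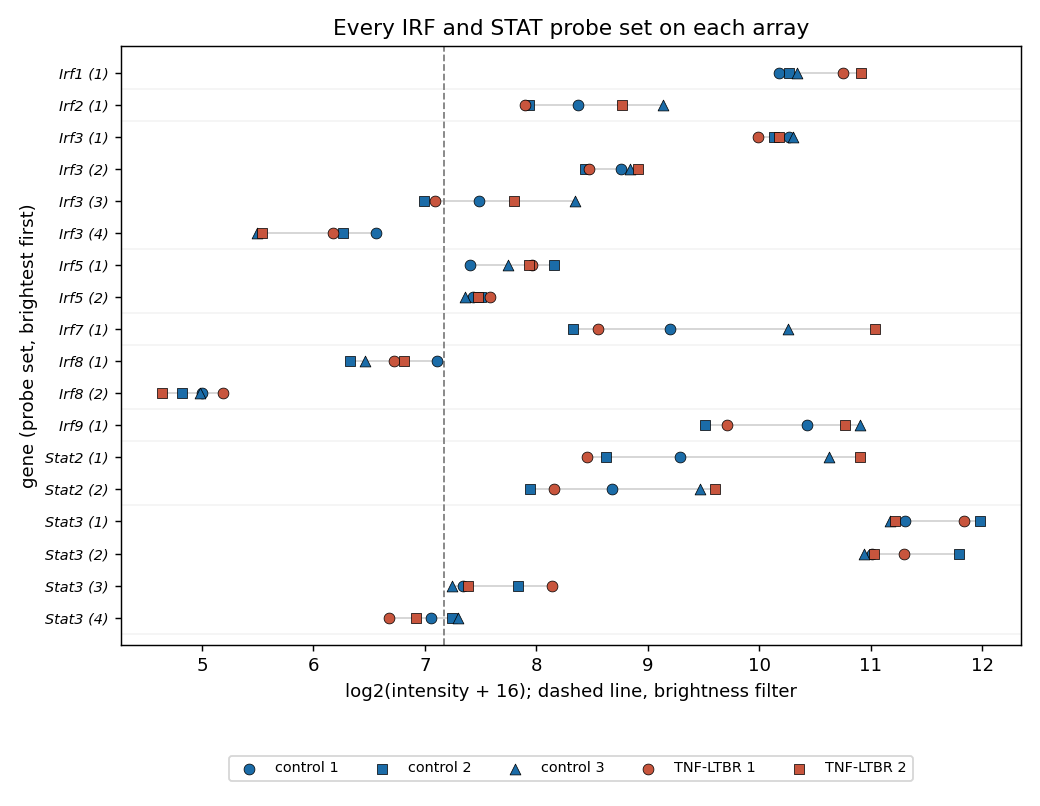
All 18 probe sets of the 9 factors, 1 per line and numbered by brightness within a gene, on the log2(intensity + 16) scale, with 1 point per array (blue control, red TNF-LTBR) and a dashed line at the brightness filter. The 2 probe sets of Stat2 keep the same wide spread of arrays, and 3 of the 4 Stat3 probe sets place control array 2 and TNF-LTBR array 1 highest.

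Over the 8 tested factors, 5 means were higher and 3 lower in TNF-LTBR, with a median difference of 0.10, against a median of -0.00346 and 49.3% higher over all tested genes. Leaving out TNF-LTBR replicate 1 gave a median of 0.39 for the factors, and leaving out TNF-LTBR replicate 2 gave -0.41. By single array, 6 of the 8 (Irf1, Irf2, Irf3, Irf7, Irf9 and Stat2) were higher on control array 3 than on control array 2 and also higher on TNF-LTBR array 2 than on TNF-LTBR array 1. Of all tested genes, 40.3% had that order. The other two, Stat3 and Irf5, had the opposite order on both sides, which 38.6% of tested genes had. This order was chosen after the values were seen. With 1 array on each side of these contrasts there is no test. Over all probe sets with 1 gene symbol, the log2 values of control array 3 and TNF-LTBR array 2 correlated at 0.977 (Pearson). Those of control array 2 and TNF-LTBR array 1 correlated at 0.973, and pairs of arrays within a group at 0.948 to 0.966.

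**Figure D3:**
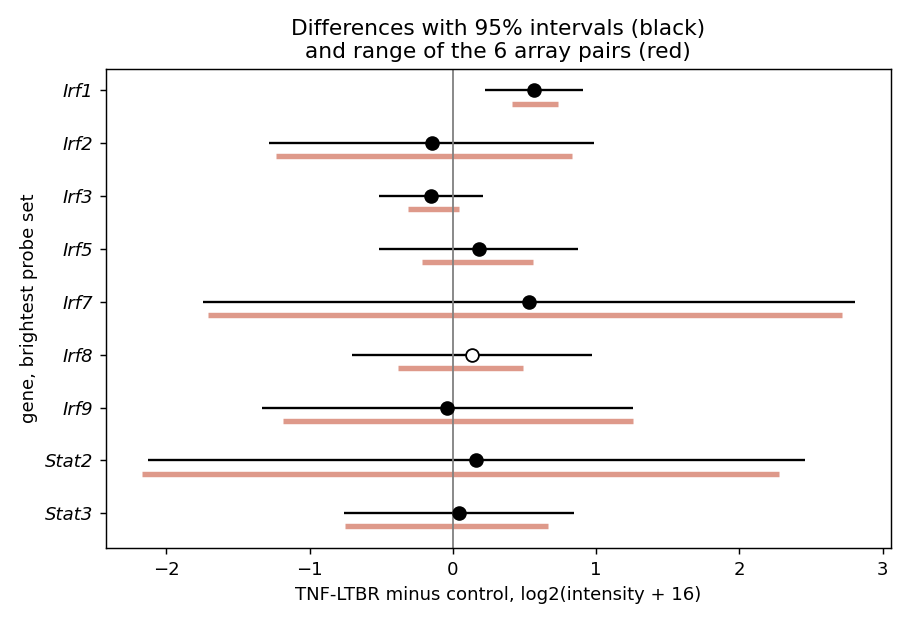
Difference between TNF-LTBR and control for each factor on the log2(intensity + 16) scale, with the 95% limma interval in black and the range of the 6 differences between single arrays in red. The open circle for Irf8 comes from the fit without a brightness filter. Irf1 is the 1 factor whose 6 array pairs, from 0.41 to 0.73, and whose interval lie above 0.

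Among other IRF and STAT genes, Irf4 and Stat4, which act mainly in lymphocytes, were under the filter. Stat5a, Stat5b and Stat6, which serve growth factor and interleukin receptors, were tested, and none passed. Their differences were 0.24, -0.10 and 0.11. All 3 had the array order of Irf7: Stat5a was at 9.45, 8.97 and 10.11 in control, against 9.18 and 10.31 in TNF-LTBR on the log2 scale. The Stat5a difference was -0.33 and that of Stat6 -0.26 without TNF-LTBR replicate 2, while that of Stat5b was 0.32 without TNF-LTBR replicate 1.

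Upstream of the factors, ligand transcripts were mostly dim, and 4 of 13 measured were tested. None passed the threshold. Lif, which activates STAT3 through the shared receptor subunit gp130, was at 7.48, 7.65 and 6.42 in control, against 8.87 and 7.68 in TNF-LTBR, a log2 difference of 1.09 with no overlap. That difference was 0.49 when TNF-LTBR replicate 1 was left out, 1.68 when TNF-LTBR replicate 2 was and 0.71 when control replicate 3 was. For Lif the closest pair of a TNF-LTBR and a control array differed by 0.026. Ctf1 (cardiotrophin 1, of the same family) was lower on both TNF-LTBR arrays, at -0.53, and Clcf1 was at 0.26 (-0.0098 without TNF-LTBR replicate 1). Il6, the classical STAT3 ligand, which was picked once its values had been seen, was bright on 2 arrays: it lay at 5.78, 10.23 and 5.63 in control, against 10.24 and 5.64 in TNF-LTBR. The 2 bright arrays, control array 2 and TNF-LTBR array 1, were also the highest for Stat3.

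Of 12 receptor and kinase transcripts tested, none passed the threshold, 9 were higher and 3 lower, with a median of 0.20 that stayed between 0.12 and 0.26 when each array was left out. Both TNF-LTBR arrays were above all controls for 4 of the 12, against 6.94% of all tested genes. Ifngr2, a subunit of the interferon gamma receptor, was at 10.43, 10.29 and 9.81 in control, against 10.93 and 10.90 in TNF-LTBR, a log2 difference of 0.74 (limma 95% interval 0.19 to 1.29, adjusted p 0.999). With the mean of all its probe sets Ifngr2 differed by 0.44, with an unadjusted limma p of 0.0595. Ifnar1 was at 9.51, 9.57 and 9.52 in control, against 9.86 and 9.94 in TNF-LTBR, a difference of 0.36 (95% interval 0.03 to 0.70). With the mean of all its probe sets Ifnar1 differed by 0.28, with an unadjusted limma p of 0.282. Ifnar2 was at 11.04, 11.06 and 11.19 against 11.24 and 11.56, a difference of 0.31 (95% interval -0.07 to 0.69) that fell to 0.15 without TNF-LTBR replicate 2 and was 0.47 without TNF-LTBR replicate 1. The fourth was the kinase Tyk2, named after its values were seen, at 0.08. In contrast to Irf7 and Stat2, these transcripts of the type I interferon receptor placed both TNF-LTBR arrays above the controls on their brightest probe sets. For Ifnar2 the closest pair of a TNF-LTBR and a control array differed by 0.056.

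Among 16 tested activators of IRF3 and IRF7 (nucleic acid sensors, adaptors and kinases), 9 were higher, 7 lower and none passed, with a median of 0.06 (-0.25 without TNF-LTBR replicate 2). Ddx58, the RNA sensor RIG-I, and Traf6, an adaptor ligase, were the 2 of 16 with both TNF-LTBR arrays above all controls, against 6.94% of all tested genes, at 0.66 and 0.29. Ddx58 was at 0.34 when control replicate 2 was left out and 0.36 when TNF-LTBR replicate 2 was, and Traf6 was at -0.12 with the mean of its probe sets. For Ddx58 the closest pair of a TNF-LTBR and a control array differed by 0.033. Tlr4, a receptor of bacterial lipopolysaccharide, was at -0.26, with a range of -0.47 to -0.052 over the fits that left out TNF-LTBR replicate 2 or 1, and -0.060 without control replicate 1. Among 14 tested brakes of the pathway, 5 were higher, 9 lower and none passed, with a median of -0.07. Pias4, an inhibitor of STAT proteins, was at 0.33 (-0.023 with the mean of its probe sets). Ptpn1, a phosphatase of JAK2 and TYK2, was at -0.36 (-0.18 without TNF-LTBR replicate 2), and Ptpn6 was at 0.29 (0.11 without TNF-LTBR replicate 1). Socs3, the feedback inhibitor of STAT3 signalling, was chosen after its values were seen and lay at 9.70, 11.07 and 10.14 in control, against 11.09 and 9.74 in TNF-LTBR. It was highest on the 2 arrays where Stat3 and Il6 were highest. Usp18, the feedback inhibitor of the type I receptor, likewise chosen afterwards, lay at 10.13, 8.08 and 11.40 in control, against 8.70 and 11.39 in TNF-LTBR, and its 2 highest arrays were those of Irf7. Of the 14 brakes, 6 had the array order of Irf7 and 6 that of Stat3, 42.9% each. These shares were near those of all tested genes, 40.3% and 38.6%.

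Downstream, none of the target genes passed either. Their array orders are counted over genes that share the same 5 arrays and are therefore a description. Of 19 tested ISGF3 targets, 16 were higher in TNF-LTBR with a median of 0.25, and 16 had the array order of Irf7, against 40.3% of all genes. The list mean was 9.78, 8.85 and 10.35 in control, against 9.28 and 10.61 in TNF-LTBR. Its median difference was 1.12 without TNF-LTBR replicate 1, -0.49 without TNF-LTBR replicate 2 and -0.24 without control replicate 2. Zbp1, a sensor of Z-form nucleic acid, was the 1 of 19 ISGF3 targets with no overlap. Of all tested genes, 13.3% had none, 6.94% with both TNF-LTBR arrays above all controls. Zbp1 lay at 6.36, 7.16 and 6.01 in control, against 8.95 and 7.66 in TNF-LTBR. The difference was 1.80 (limma 95% interval 0.45 to 3.15, adjusted p 0.999), and 1.15 without TNF-LTBR replicate 1. Herc6 was at 0.18 (-0.045 without TNF-LTBR replicate 2) and Ifit2 at -0.32 (0.030 without TNF-LTBR replicate 1).

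All 12 tested targets of IRF1 and interferon gamma had the array order of Irf7, which 40.3% of all tested genes had. In 3 of them both TNF-LTBR arrays also lay above all controls, against 6.94% of all tested genes. Of the 12, 10 were higher in TNF-LTBR and 2 lower, with a median of 0.58. Leaving out TNF-LTBR replicate 2 gave -0.11, and leaving out TNF-LTBR replicate 1 gave 1.14. The 3 without overlap serve peptide presentation on MHC class I. Tap1, Tap2, B2m and Psmb9 of the same list, named after their values were seen, serve it too. Their groups overlapped, with differences of 0.32 for Tap1, 0.37 for Tap2 and 0.05 for B2m, and Psmb9 was under the filter. Psmb10, an immunoproteasome subunit, was at 9.32, 8.96 and 9.43 in control, against 10.12 and 10.69 in TNF-LTBR, a difference of 1.17. Tapbp (tapasin) differed by 1.05 (0.53 without TNF-LTBR replicate 2), but its closest pair of a TNF-LTBR and a control array by 0.031. Psmb8, another immunoproteasome subunit, was at 2.83-fold. In the 3 genes without overlap the arrays of a group lay further apart than for Irf1.

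Of 17 tested STAT3 targets, 13 had the array order of Stat3, against 38.6% of all tested genes, and 2 that of Irf7. The list mean was 10.33, 11.05 and 9.86 in control, against 11.29 and 10.29 in TNF-LTBR. By group, 13 were higher and 4 lower, with a median of 0.08 and a mean of 0.37, to which the acute phase gene Saa3 added most at 3.18. Saa3 was highest on TNF-LTBR array 1, with a difference of 0.79 when TNF-LTBR replicate 1 was left out and 5.56 when TNF-LTBR replicate 2 was. That median was 0.51 when TNF-LTBR replicate 2 was left out and 0.52 when control replicate 2 was, but -0.19 when TNF-LTBR replicate 1 was and -0.13 when control replicate 3 was. Myc was at 0.58 and Junb at 0.72, both with overlapping groups, and they were at 0.36 and 0.35 without TNF-LTBR replicate 1. Mcl1, named after its values were seen, was the 1 of 17 with both TNF-LTBR arrays below all controls, against 6.34% of all tested genes. It differed by -0.15, and its closest pair of a TNF-LTBR and a control array by -0.0065.

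**Figure D4:**
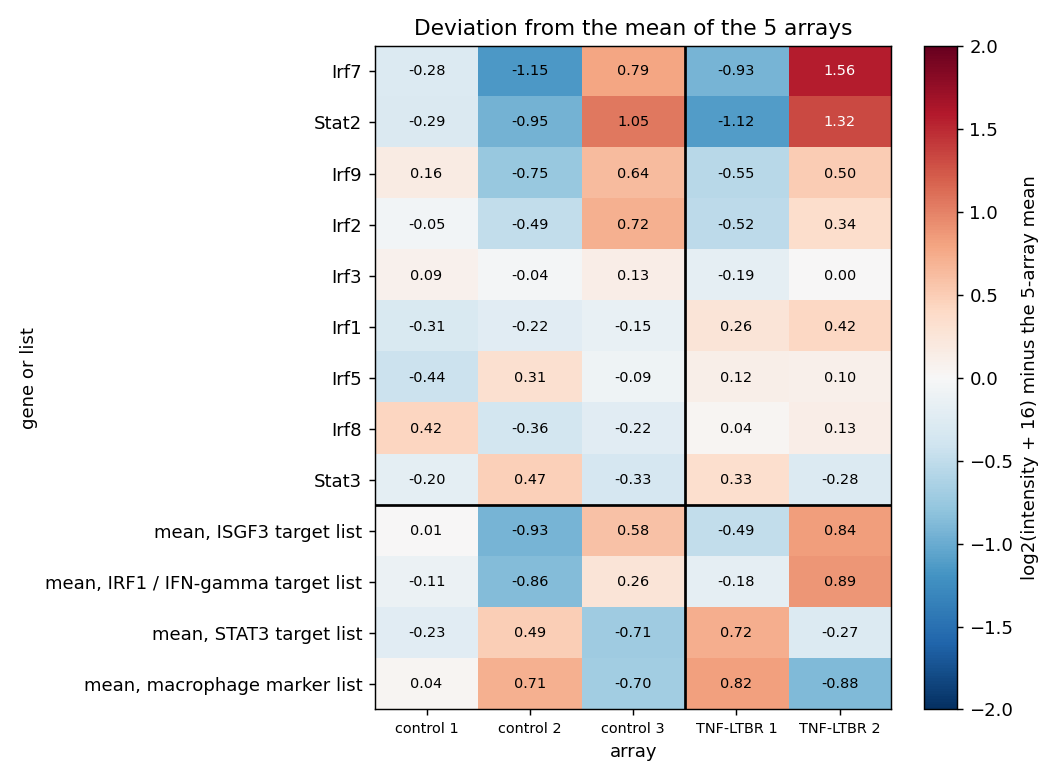
Deviation of each factor (rows above the line, brightest probe set) and of 4 list means (rows below it) from its own mean over the 5 arrays, in log2(intensity + 16) units, with the arrays in columns. Irf7 runs from -1.15 on control array 2 to 1.56 on TNF-LTBR array 2, Irf1 divides at the border between the groups, and Stat3 has the opposite signs to Irf7 and Stat2 on control arrays 2 and 3 and on both TNF-LTBR arrays.

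Markers of macrophages differed along this order of arrays. Of 11 measured, 7 were tested, and all 7 were higher on control array 2 than on control array 3 and on TNF-LTBR array 1 than on TNF-LTBR array 2, the order of Stat3 and of 38.6% of all tested genes. The summed intensity of the 11 was 4624, 8878 and 3071 in control, against 9999.8 and 3551 in TNF-LTBR, and none was at the lowest intensity on all arrays. The 10 fibroblast and pericyte markers summed to 36696 in control array 1, 61329 and 71090.4 in control arrays 2 and 3, and 70961 and 77552 in TNF-LTBR. The 10 smooth muscle markers summed to 28018.5, 20790.6 and 12560.4 in control, against 14457.8 and 12259 in TNF-LTBR. The 14 endothelial markers summed to 3224 to 4532 in control and 3434 to 3900.3 in TNF-LTBR. The part of these cells in the levels of the factors was not tested, and fewer cells of a type and less RNA per cell cannot be told apart in such samples.

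The genes whose profile over the 5 arrays was most like that of a factor were found by the root mean square difference of profiles centred on their own mean. Nearest to Irf1 were Cd47, a surface protein that restrains phagocytes, at 0.036 log2 units, S1pr1, a receptor of sphingosine 1-phosphate, at 0.058, and the ubiquitin ligase Smurf1 at 0.063. Cd47 lay at 11.77, 11.83 and 11.95 in control, against 12.42 and 12.51 in TNF-LTBR. Nearest to Irf7 were Mlph at 0.098, the chemokine Cxcl10 at 0.15 and the connexin Gja4 at 0.18. Nearest to Stat2 were the collagen chain Col6a2 at 0.12, Mlph at 0.18 and Smpdl3a at 0.19. Cxcl10, an interferon-induced gene, lay at 7.19, 6.47 and 7.99 in control, against 6.67 and 9.14 in TNF-LTBR, so that array 2 of TNF-LTBR stood above the rest as it did for Irf7. Col6a2 lay at 12.16, 11.79 and 13.86 in control, against 11.49 and 13.97 in TNF-LTBR.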

How the data were processed

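RNA of 5 samples was measured on arrays of 45101 probe sets. Per the labels, the authors isolated total RNA with a column kit and labelled it with biotin by in vitro transcription. The submitters' processing notes name GCOS 1.4. The deposited values are linear array intensities per probe set, whose mean without the lowest and highest 2% was 500 on each array, so they were used as deposited. The summarising algorithm is not given in the sources used here. From these, log2(intensity + 16) was computed. Of the probe sets, 34958 had 1 gene symbol in the platform annotation, 932 several and 9211 none listed, and only the first were named. Each gene was represented by its brightest probe set, and the brightest 60% of genes were tested in R 4.3.3 with limma 3.58.1 (lmFit, eBayes with intensity trend, two-sided, Benjamini-Hochberg, 3 residual degrees of freedom), a procedure tested on simulated data. Groups and replicate numbers came from the titles. The number of arrays limits the precision. The 9 factors, the lists and the alternatives were chosen with earlier results of these data known. Named genes were all 9 factors, the other family genes, up to 3 genes with the smallest limma p per list, and the 3 nearest profiles of Irf1 and of the 2 factors with the largest SD. Others are marked as named after their values were seen. The lists for ISGF3, IRF1 and STAT3 targets, ligands, receptors and kinases, activators, brakes and cell markers are textbook selections. Of the lymphocyte and dendritic cell markers, 2 of 11 measured passed the filter. Of the smooth muscle markers, 8 of 10 passed, with a median difference of -0.58 and none past the threshold. Promoter windows came from RefSeq tables of GRCm38.p6. The build behind the probe sets is not given in the sources used here. Alternatives were other pseudocounts, filters, normalizations, probe set rules and model settings, a block for the replicate number, and fits that left out 1 array each.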

Additional observations from a re-analysis of the deposited data

How the results depend on the processing

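In each of the 17 alternatives 0 genes passed the limma threshold, and Irf1 and Irf3 kept their sign in every alternative that could measure them (Irf1 in 16, Irf3 in 17). The number of factors without overlap was 1 in 13 alternatives, 1 to 4 when an array was left out, and 0 of 4 without probe sets with shared-sequence suffixes, a setting that leaves out Irf1, Irf2, Irf7 and Irf9. When each array was left out in turn, differences whose direction turned ranged from -0.58 to 0.28 for Irf2, -0.0026 to 0.37 for Irf5, -0.018 to 0.37 for Irf8 (not tested), -0.71 to 1.78 for Irf7, -0.57 to 0.49 for Irf9, -1.06 to 1.39 for Stat2, -0.26 to 0.35 for Stat3, -0.33 to 0.80 for Stat5a, -0.26 to 0.47 for Stat6, -0.53 to 0.32 for Stat5b, -0.0098 to 0.53 for Clcf1, -0.045 to 0.41 for Herc6 and -0.68 to 0.030 for Ifit2. The list medians that moved beyond the array spread ranged from -0.25 to 0.14 for IRF activators and from -0.49 to 1.12 for ISGF3 targets. With the stricter filter the ligand median was -0.53, from the 1 gene left. With the mean of all probe sets of a gene, Stat3 was at -0.036, Traf6 at -0.12 and Pias4 at -0.023. With array quality weights Irf9 was at 0.069 and Stat3 at -0.00048. Ptpn1 was at 0.040 without shared-suffix probe sets. The cause was not tested, except that settings with fewer arrays or probe sets hold less data.

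With the replicate number as a block, Irf2 was at 0.18, Irf9 at 0.27, Stat3 at -0.11 and Stat5b at 0.13, with 0 genes past the threshold. The block takes control array 3, which has no partner, out of the comparison. The labels do not say that a number marks a shared culture or day. Over all tested genes, deviations of TNF-LTBR array 1 from its group mean correlated with those of control array 1 at 0.13. With those of control array 2 the value was 0.80, and with those of control array 3 it was -0.81. TNF-LTBR array 2 gave the same values with the sign reversed, because 2 arrays deviate equally from their mean. Whether arrays of equal number share a culture or day was not tested.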
